A study of Mus musculus with 6 samples.

Results

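The S100 proteins are small calcium-binding proteins, and 8 of their genes were followed here in bone marrow (BM) neutrophils of mice with and without a lung tumor: S100a8, S100a9, S100a6, S100a4, S100a10, S100a11, S100a1 and S100a13. They were chosen by name from the family, with earlier results of these data known, and every member is described whatever its values. The count table held 38887 Ensembl identifiers, 37570 of them matched to a symbol and 17 of those to an S100 symbol. All 8 members passed the filter on low counts that left 12259 genes for testing. RNA came from Ly6G+ cells selected with magnetic beads from the BM of naive mice, of mice 1 week after intravenous injection of LL2 cells (one-week LL2 mice) and of mice 3 weeks after injection (three-week LL2 mice), with 2 libraries in each group. LL2 is the Lewis lung carcinoma cell line, here carrying luciferase and growing in the lung of the injected mouse. The methods name purchased mice of the C57BL/6 background without saying which of them gave these libraries, the labels name no altered gene in any group, and the naive mice bore no tumor. The labels give neither an age nor the number of animals behind a library, so p-values measure the spread between libraries of 1 group.

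S100 proteins carry paired EF-hand loops that bind calcium, and most work as dimers that dock on a target protein once calcium is bound. S100a8 and S100a9 pair to form calprotectin, the dominant protein of the neutrophil cytosol, which starves microbes of zinc and manganese and, when released, is read by the receptors Tlr4 and Ager. The other members are found in many cell types, where they bind annexins, myosin or other partners at membranes and in the cytoskeleton.

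Library totals lay between 11994158 and 14127919 counts, and at this depth a count of 3, taken as the limit of detection per library, corresponded to 0.212 to 0.25 CPM (counts scaled to a common library size by the TMM method, which corrects each library for its composition). Libraries of the same group correlated at Pearson's r of 0.9772 to 0.9799 in log2 CPM, taken over genes, which are no independent replicates. All 13 neutrophil markers of the list used were counted. The list includes S100a8 and S100a9, so for these it is no separate check. Ly6g, the gene of the protein used for selection, had only 6 to 32 counts a library. In the summed level of marker lists of other cells, promyelocyte genes held 56.6 to 69.1 CPM in naive libraries, 67.4 to 104.1 at 1 week and 273.1 to 372.8 at 3 weeks. B cell genes held 58.4 to 86.4, 51.5 to 61.9 and 14.1 to 22.4 CPM, and genes of eosinophils, basophils and mast cells 37.6 to 40.6, 81.3 to 90.8 and 19.7 to 28.8 CPM. Each of these 3 lists had 8 genes, and their part in the results on S100 genes was not tested.

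S100a8 and S100a9 were the most and the second most abundant transcripts in each of the 6 libraries. The 8 members together made up 24.5% and 26.4% of all counts in the naive libraries, 24.3% and 26.1% in the one-week libraries, and 28.6% and 27.5% in the three-week libraries. Group means were 25.5% ± 1.30 (SD, n = 2), 25.2% ± 1.23 and 28.1% ± 0.792. The naive and one-week shares overlapped, and both three-week shares lay above the other 4. With 2 libraries a group, the smallest p that an exact permutation test could give was 0.333, and no test of these shares was made. S100a8 and S100a9 supplied 96.8% to 98.5% of the members' counts. The other 6 members together held 0.363% and 0.421% of counts in naive libraries, 0.491% and 0.469% at 1 week, and 0.921% and 0.822% at 3 weeks. S100a6 supplied most of that, at 0.287% and 0.343% of counts in naive, 0.389% and 0.359% in one-week and 0.836% and 0.747% in three-week libraries. Its rank among all genes moved from 16 and 17 in naive to 13 and 14 at 1 week and to 8 and 9 at 3 weeks. Exact binomial 95% intervals of the combined share were narrow, 24.519% to 24.568% in the first naive library, and cover counting error only. S100 transcripts are short, at 486 to 731 bases, so they weigh more when counts are divided by gene length. On that scale the 8 members made up 52.7% and 54.4% of the naive libraries, 50.5% and 52.7% at 1 week and 57.0% and 55.5% at 3 weeks.

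**Figure D1:**
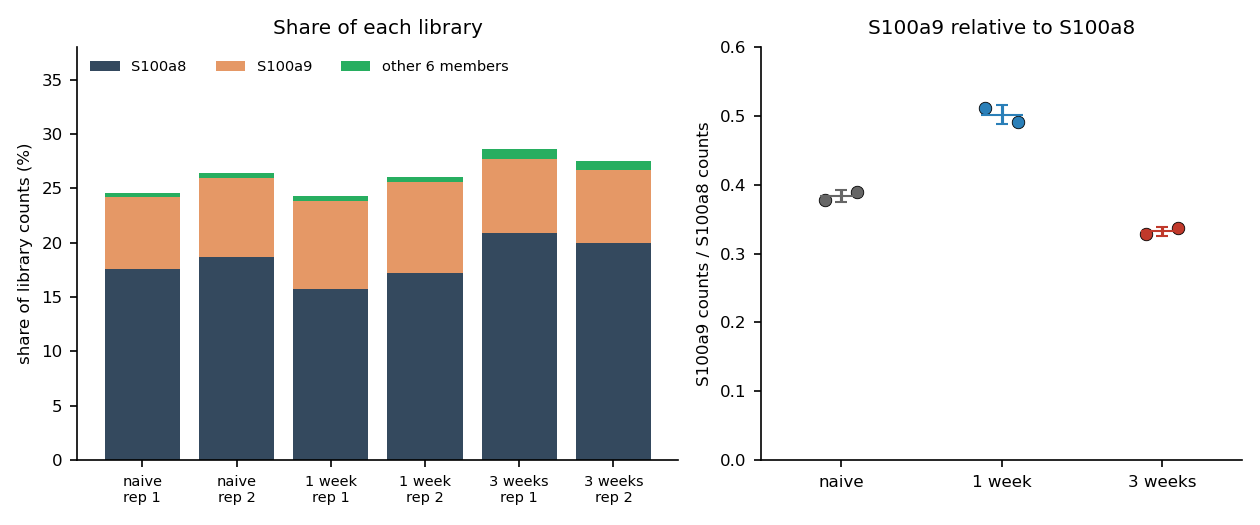
The left panel stacks the percent of each library's counts held by S100a8, S100a9 and the other 6 members, from 0, with 1 bar per library. The right panel plots S100a9 counts divided by S100a8 counts, with 2 points per group and the mean ± SD. The ratio was highest in both one-week libraries and lowest in both three-week libraries.

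The order of the levels per length was the same in all 6 libraries. In the naive group it ran from S100a8 (389472 ± 6113 TPM, SD, n = 2) to S100a9 (139928 ± 5123), S100a6 (4497 ± 445), S100a11 (1384 ± 36.1), S100a13 (91.9 ± 4.42), S100a4 (33.8 ± 5.14), S100a1 (12.6 ± 0.446) and S100a10 (5.19 ± 0.539). TPM, the transcript share per length, are here the deposited counts divided by gene length and scaled to a common sum. Neighbours in this order were separated by more than their spread in the naive group. At 3 weeks S100a4 lay at 28.5 and 21.2 TPM and S100a1 at 19.6 and 19.4 TPM, so that the libraries of S100a4 differed from each other by more than the lower one differed from S100a1. At 1 week S100a4 lay at 26.2 and 83.3 TPM, the widest spread of any member relative to its mean in any group.

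The 8 genes lie on chromosome 3 of GRCm38, the build called mm10, within 3041 kb from the start of S100a1 to that of S100a10. S100a8 (ENSMUSG00000056054, chr3:90668978-90670035, + strand) and S100a9 (ENSMUSG00000056071, chr3:90692632-90695721, - strand) have 3 exons each, and their annotated starts are 26.74 kb apart. S100a6 (ENSMUSG00000001025, chr3:90612882-90624181, + strand) and S100a4 (ENSMUSG00000001020, chr3:90603771-90606045, + strand) lie at lower positions on the chromosome than both. S100a1 (ENSMUSG00000044080, chr3:90511034-90514392, - strand) and S100a13 (ENSMUSG00000042312, chr3:90514435-90524581, + strand) stand head to head. S100a11 (ENSMUSG00000027907, chr3:93520488-93526287, + strand) and S100a10 (ENSMUSG00000041959, chr3:93555080-93564643, + strand) lie 2825 kb beyond S100a9. Among the 69 protein-coding genes from S100a1 to S100a10, 55 had 3 or fewer counts in every library and 11 were tested, namely the 8 members, S100a2, S100a3 and Pglyrp4. The stretch between S100a9 and S100a11 holds the genes of the skin barrier.

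Because S100a8 and S100a9 gave most of the counts, and S100a6 rose most, the 250 bases before the start of each are shown, from RefSeq on GRCm38.p6, which held 7 of the 8 members and not S100a10. Capitals mark matches on either strand to C/EBP-type (TTNNGNAA), PU.1-type (GAGGAAGT) and a TATA box (letters TATAAA).
S100a8, chr3:90668821-90669070, + strand: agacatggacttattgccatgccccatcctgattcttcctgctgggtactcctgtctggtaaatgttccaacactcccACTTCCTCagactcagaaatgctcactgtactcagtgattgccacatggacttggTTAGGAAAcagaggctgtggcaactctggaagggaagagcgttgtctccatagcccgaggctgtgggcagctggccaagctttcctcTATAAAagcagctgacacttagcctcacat
S100a9, chr3:90695722-90695971, - strand: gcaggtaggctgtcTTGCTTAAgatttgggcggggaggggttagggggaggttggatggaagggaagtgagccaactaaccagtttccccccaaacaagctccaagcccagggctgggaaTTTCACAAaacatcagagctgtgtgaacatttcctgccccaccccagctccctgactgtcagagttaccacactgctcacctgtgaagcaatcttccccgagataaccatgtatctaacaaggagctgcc
S100a6, chr3:90612644-90612893, + strand: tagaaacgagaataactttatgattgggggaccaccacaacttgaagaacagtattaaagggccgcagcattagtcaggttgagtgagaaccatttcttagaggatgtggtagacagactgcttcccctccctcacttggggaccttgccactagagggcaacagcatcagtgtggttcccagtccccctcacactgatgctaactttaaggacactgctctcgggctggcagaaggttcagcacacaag
The S100a8 window had a C/EBP-type match at -117 to -110, a PU.1-type match at -172 to -165 and a TATA match at -30 to -25 from its RefSeq start, which lies 93 bases inside the gene as GENCODE annotates it. The S100a9 window had C/EBP-type matches at -236 to -229 and -130 to -123, and the S100a6 window had none of the motifs searched. The same letters occurred in 36.8% (C/EBP-type), 2.44% (PU.1-type) and 12.4% (TATA) of 32851 promoter windows of equal length, and a match is a description of the letters, not a site of binding. AP-1-type (TGANTCA, 6.75% of windows), STAT-type (TTCNNNGAA, 7.02%) and hypoxia core (ACGTG, 16.6%) letters were absent from these 3 windows.

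**Figure D2:**
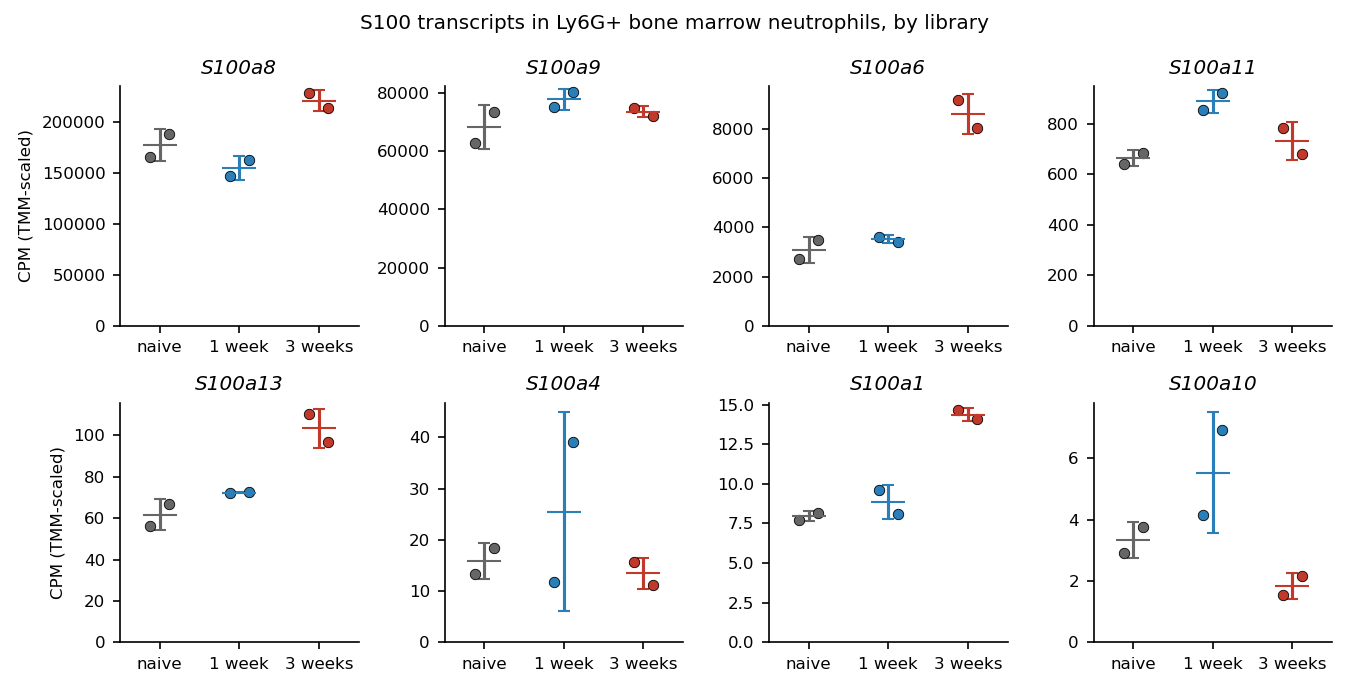
Level of each member in CPM (TMM-scaled) in the naive, one-week and three-week groups, with 1 point per library and bars for the mean ± SD (n = 2). Every axis starts at 0 and has its own range, and S100a6, S100a13, S100a1 and S100a8 have both three-week points above the other 4.

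The first question was whether BM neutrophils of one-week LL2 mice differed from naive ones. Of the 8 members, 1 passed the threshold of an adjusted p under 0.05, S100a11, which was higher. Across all genes tested 7.99% passed in either direction, 4.23% higher and 3.76% lower. The libraries of 5 of 8 members did not overlap between the groups, against 53.2% of all genes. The median log2 fold change was 0.21 over the members and 0.01 over all genes.

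Relative to naive, three-week LL2 mice had 3 of 8 members past the threshold, S100a6, S100a1 and S100a13, all higher. Of all genes 21.4% passed, 12% higher and 9.42% lower, and groups did not overlap for 5 of 8 members against 59.6% of all genes. The members' median was 0.23 and that of all genes 0.03. Scaled by library size alone, the same comparison split into 890 genes higher and 1675 lower, where TMM gave 1471 and 1155, and the 3 member calls held.

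Three-week against one-week libraries gave 5 of 8 member calls, with S100a8, S100a6, S100a1 and S100a13 higher and S100a10 lower. Of all genes 22.5% passed, 12.9% higher and 9.57% lower, and groups did not overlap for 7 of 8 members against 63.9% of all genes. The members' median was 0.22 and that of all genes -0.02. Library size alone gave 856 genes higher and 2136 lower, against 1586 and 1173 with TMM, and among the members S100a1 and S100a13 were then no longer called while S100a9 and S100a11 were called lower. The comparisons with naive mice share the naive libraries, and each comparison shares libraries with the next.

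**Figure D3:**
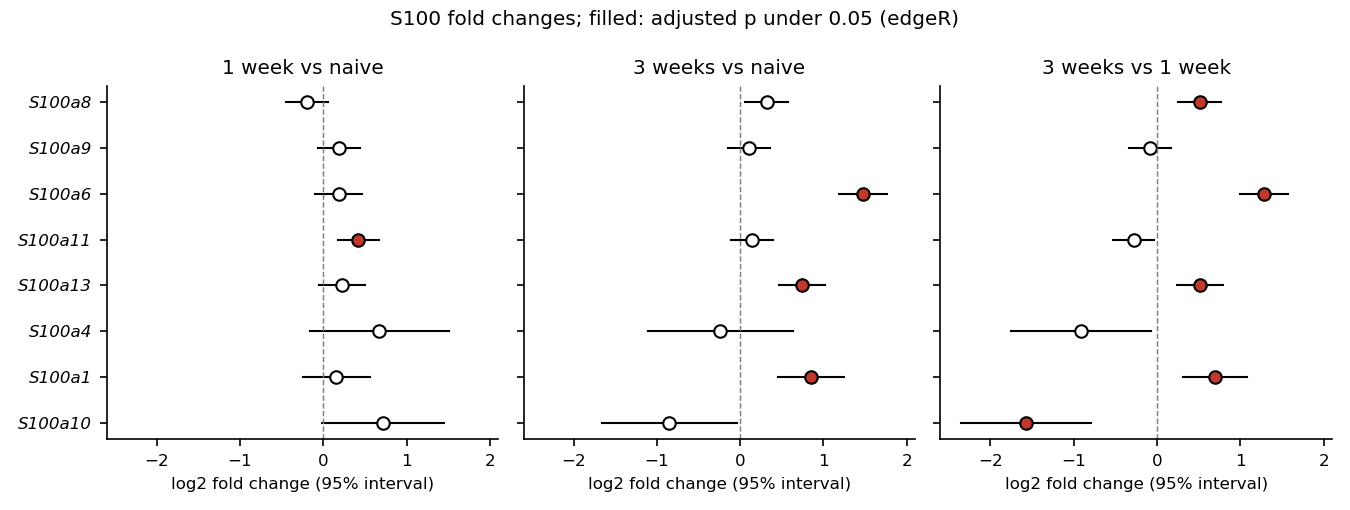
Log2 fold change of each member with its 95% interval in each of the 3 comparisons, from edgeR on all 6 libraries. Filled points passed an adjusted p under 0.05, which holds for 1, 3 and 5 members from left to right.

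S100a8 was the calprotectin gene with more RNA. It stood at 166394 and 188846 CPM in naive, 147150 and 163355 CPM in one-week and 228488 and 214205 CPM in three-week libraries. Both three-week values exceeded the other 4, and both one-week values lay below both naive ones. The rise from 1 to 3 weeks was 1.43-fold (log2 0.51, SE 0.118, edgeR adjusted p = 0.00741). Against naive the log2 fold change was -0.19 (SE 0.118, edgeR adjusted p = 0.357) at 1 week and 0.32 (SE 0.118, edgeR adjusted p = 0.0737) at 3 weeks. The call between the LL2 groups was lost without the first one-week library, at log2 0.41 (edgeR adjusted p = 0.108). In bulk RNA a smaller share of cells of a type and less RNA per cell cannot be told apart.

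S100a9 encodes the partner chain of calprotectin. It stood at 62886 and 73515 CPM in naive, 75266 and 80320 CPM in one-week and 74926 and 72240 CPM in three-week libraries. The naive and three-week values overlapped, and no comparison passed the test. The log2 fold changes were 0.19 at 1 week and 0.11 at 3 weeks against naive and -0.08 between the LL2 groups, with edgeR adjusted p of 0.361, 0.562 and 0.663. The 95% interval of the fold between LL2 groups ran from 0.794 to 1.13. The direction of the three-week difference from naive turned with scaling by library size (log2 -0.04) and without the first naive library (log2 -0.03).

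The ratio of S100a9 to S100a8 counts within a library needs no scaling between libraries. It was 0.378 and 0.389 in naive, 0.512 and 0.492 in one-week and 0.328 and 0.337 in three-week libraries. No library of any group reached the range of another group. Group means were 0.384 ± 0.00806 (SD, n = 2), 0.502 ± 0.014 and 0.333 ± 0.00658, so that the ratio was 1.31 times the naive mean at 1 week and 0.867 times at 3 weeks, and fell 1.51-fold between the LL2 groups. With 2 libraries a group an exact permutation test of this ratio could not go below p = 0.333, and none was made. As a difference of log2 fold changes, S100a9 minus S100a8, it was 0.38 at 1 week against naive, -0.21 at 3 weeks against naive and -0.59 between LL2 groups. Other scalings, filters and tools act on both genes nearly alike, so they could hardly move this difference and are no check on it. Without each library in turn it ranged from 0.36 to 0.41, from -0.23 to -0.19 and from -0.62 to -0.56. The transcripts are of like length, 486 and 519 bases, and neither shares a stretch of 50 bases with another annotated transcript.

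S100a6, or calcyclin, which binds annexins and the calcyclin-binding protein Cacybp, rose most of the members. It stood at 2718 and 3470 CPM in naive, 3626 and 3412 CPM in one-week and 9156 and 8017 CPM in three-week libraries. The naive and one-week libraries overlapped, whereas both three-week libraries stood far above them. Its level at 3 weeks was 2.77-fold that of naive, with a 95% interval of 2.27 to 3.39 (log2 1.47, SE 0.134, edgeR adjusted p = 8.79e-06). It was 2.44-fold that at 1 week (log2 1.29, SE 0.134, edgeR adjusted p = 2.48e-05). At 1 week its log2 fold change from naive was 0.19 (edgeR adjusted p = 0.436). Both rises passed in all 16 alternatives, each library left out included. The study names S100a6 from these same libraries, which makes its direction no independent evidence. The promyelocyte list was also higher at 3 weeks, with 5 of its 8 genes called higher than naive, against 12% of all genes. The part of these genes in the rise of S100a6 was not tested.

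S100a1, known from heart muscle, where it tunes calcium release and reuptake, stood at 7.75 and 8.18 CPM in naive, 9.60 and 8.12 CPM in one-week and 14.7 and 14.1 CPM in three-week libraries. These are small counts, 98 to 189 a library. Its level at 3 weeks was 1.80-fold that of naive (log2 0.85, SE 0.182, edgeR adjusted p = 0.00505) and 1.62-fold that at 1 week (log2 0.69, SE 0.179, edgeR adjusted p = 0.0138). The call against naive was lost without the first naive library (log2 0.78, edgeR adjusted p = 0.0551), and the call between LL2 groups without the second one-week library (log2 0.55, edgeR adjusted p = 0.136) or the first three-week library (log2 0.68, edgeR adjusted p = 0.0584).

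S100a13, which helps export proteins that lack a signal peptide such as Fgf1 and Il1a, stood at 56.4 and 67.1 CPM in naive, 72.2 and 72.6 CPM in one-week and 110.2 and 96.7 CPM in three-week libraries. Its three-week libraries lay above the other 4, and its one-week libraries above both naive ones. The level at 3 weeks was 1.67-fold that of naive (log2 0.74, SE 0.128, edgeR adjusted p = 0.00117) and 1.43-fold that at 1 week (log2 0.51, SE 0.127, edgeR adjusted p = 0.0109). The latter call was lost without either one-week library or without the first three-week library, with edgeR adjusted p of 0.0839, 0.0891 and 0.0821. The former held in all 16 alternatives. Of the 4 partners listed for its secretion, 3 were tested and none was called by edgeR or DESeq2 in any comparison, while 1 was lower at an unadjusted p under 0.05 in each comparison with the three-week libraries. Il1a had 4 to 14 counts a library.

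As GENCODE annotates them, S100a1 and S100a13 start on opposite strands 43 bases apart, and both were higher at 3 weeks. The RefSeq start of S100a1, at position 90514330, lies further inside that gene. The 42 bases between the GENCODE starts (chr3:90514393-90514434, GRCm38.p6, written on the + strand towards S100a13) are 54.8% G or C and hold none of the motifs searched.
S100a1 to S100a13: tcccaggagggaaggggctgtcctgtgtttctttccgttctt

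S100a11, a partner of Anxa1, was the only member past the threshold at 1 week. It stood at 640.3 and 684.9 CPM in naive, 855.2 and 920.1 CPM in one-week and 783.2 and 679.0 CPM in three-week libraries. Its one-week libraries lay above the other 4, and its level there was 1.34-fold that of naive (log2 0.42, SE 0.115, edgeR adjusted p = 0.0409). Against naive the three-week log2 fold change was 0.14 (edgeR adjusted p = 0.427), and between the LL2 groups it was -0.28 (edgeR adjusted p = 0.0996). The call at 1 week was lost without any 1 of the 4 libraries compared, with edgeR adjusted p from 0.0758 to 0.248. It was also lost once gene length and GC content entered as offsets (log2 0.12, edgeR adjusted p = 0.547). The S100a11 transcript shares 190 of its 462 stretches of 50 bases with Gm12854, Gm29240 and Gm7665, and of these Gm12854 and Gm7665 had 0 or 1 count a library. Its RefSeq window of 250 bases had AP-1-type matches at -136 to -130 and -38 to -32, and overlapping matches to the hypoxia core, 1 on each strand, at -223 to -219 and -222 to -218.

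S100a10, or p11, which joins Anxa2 in a complex at the plasma membrane and has lost the ability to bind calcium, was the scarcest member. Its libraries held 37 and 46 counts in naive, 62 and 93 at 1 week and 20 and 28 at 3 weeks, or 2.92 and 3.76, 4.13 and 6.93, and 1.55 and 2.15 CPM. All 3 groups were apart from each other, with the one-week group highest. S100a10 fell 2.97-fold from 1 to 3 weeks (log2 -1.57, SE 0.360, edgeR adjusted p = 0.00714). Against naive its log2 fold changes were 0.72 at 1 week (edgeR adjusted p = 0.222) and -0.85 at 3 weeks (edgeR adjusted p = 0.129). The fall was not called without the second one-week library (log2 -1.18, edgeR adjusted p = 0.0901) or the first three-week library (log2 -1.34, edgeR adjusted p = 0.0511). The summed level of the eosinophil, basophil and mast cell list was also highest at 1 week and lowest at 3 weeks (81.3 to 90.8 and 19.7 to 28.8 CPM). Of its 5 tested genes, 4 were lower at 3 weeks than at 1 week, against 9.57% of all genes. The remaining gene was higher (log2 1.52, edgeR adjusted p = 0.0117), against 12.9% of all genes. It was Siglecf, an eosinophil lectin named here after its values were seen. The summed T and NK cell genes had the same order, at 18.9 to 28.4 CPM at 1 week, 15.6 to 17.9 in naive and 11.5 to 13.1 at 3 weeks. Of their 4 tested genes, 1 was lower and 0 higher at 3 weeks than at 1 week. Dendritic cell genes were highest at 1 week too (81.2 to 87.96 CPM), while their naive and three-week libraries overlapped. The summed B cell genes were lowest at 3 weeks. The part of these lists in the level of S100a10 was not tested.

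S100a4, which binds the heavy chain of non-muscle myosin (Myh9), had 169 and 225 counts in naive, 176 and 526 at 1 week and 202 and 147 at 3 weeks. The second one-week library stood apart, at 39.2 CPM against 11.7 in the first, 13.4 and 18.4 in naive and 15.7 and 11.3 at 3 weeks. No comparison passed the test, with log2 fold changes of 0.67, -0.24 and -0.91 and edgeR adjusted p of 0.326, 0.733 and 0.114. Without the second one-week library the one-week difference from naive turned to log2 -0.44, and without the first it was 1.30 and passed (edgeR adjusted p = 0.0122). The gene overlaps Gm42674, which shares 253 of the 449 stretches of 50 bases in S100a4 and has no row in the count table used here. The summed T and NK cell list was also highest in the second one-week library, at 28.4 CPM against 18.9 in the first. So were the lists of erythroid cells (1521 against 1320), dendritic cells (87.96 against 81.2), and eosinophils, basophils and mast cells (90.8 against 81.3). The other marker lists were not highest there. The part of these lists in the level of S100a4 was not tested.

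Of 10 other S100 genes listed, 9 were in the table and 3 were tested, S100a2, S100a3 and S100b. S100b, best known from glia, had 25 and 46 counts in naive, 111 and 101 at 1 week and 59 and 77 at 3 weeks, and was 2.60-fold higher than naive at 1 week (log2 1.38, edgeR adjusted p = 0.0168). S100a3, a protein of the hair cuticle, had 22 and 26, 26 and 40, and 6 and 13 counts and was lower at 3 than at 1 week (log2 -1.67, edgeR adjusted p = 0.0332), a call that DESeq2 did not make. S100a2 had 25 to 54 counts a library and was not called.

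Receptors of S100 proteins and the partners of those receptors made a list of 12 genes, all tested. At an adjusted p under 0.05, 0 of 12 were called by edgeR at 1 week against naive, 7 were higher and 1 lower at 3 weeks against naive, and 6 were higher and 0 lower at 3 weeks against 1 week, where 12% and 12.9% of all genes were higher. At 1 week, 1 receptor gene was higher and 2 were lower at an unadjusted p under 0.05, and DESeq2 called 0. Scaling by library size alone gave 6 higher and 1 lower at 3 weeks against naive and 5 higher and 1 lower between the LL2 groups. The list's medians were -0.13, 0.61 and 0.64 on the log2 scale, against 0.01, 0.03 and -0.02 over all genes. Tlr4, a receptor of calprotectin, stood at 15.9 and 16.9 CPM in naive, 13.6 and 13.6 CPM at 1 week and 27.3 and 26.6 CPM at 3 weeks, and was 1.64-fold higher than naive at 3 weeks (log2 0.71, SE 0.144, edgeR adjusted p = 0.00342). Its co-receptor Cd14 stood at 24.7 and 25.4, 26.7 and 19.5, and 110.6 and 110.6 CPM, 4.41-fold higher at 3 weeks than in naive (edgeR adjusted p = 1.24e-06). Myd88, the adaptor that carries the Tlr4 signal, was 2.04-fold higher (edgeR adjusted p = 4.23e-05). Cd33, a lectin known to bind S100A9 in humans, was 1.88-fold higher (edgeR adjusted p = 0.000366). Mcam, an adhesion molecule that binds S100a8 and S100a9, rose from 4.90 and 7.44 CPM in naive to 30.5 and 36.4 CPM at 3 weeks (5.42-fold, edgeR adjusted p = 1.42e-05). Ager, which encodes the receptor RAGE, lay between 2.68 and 7.99 CPM and was not called in any comparison.

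**Figure D4:**
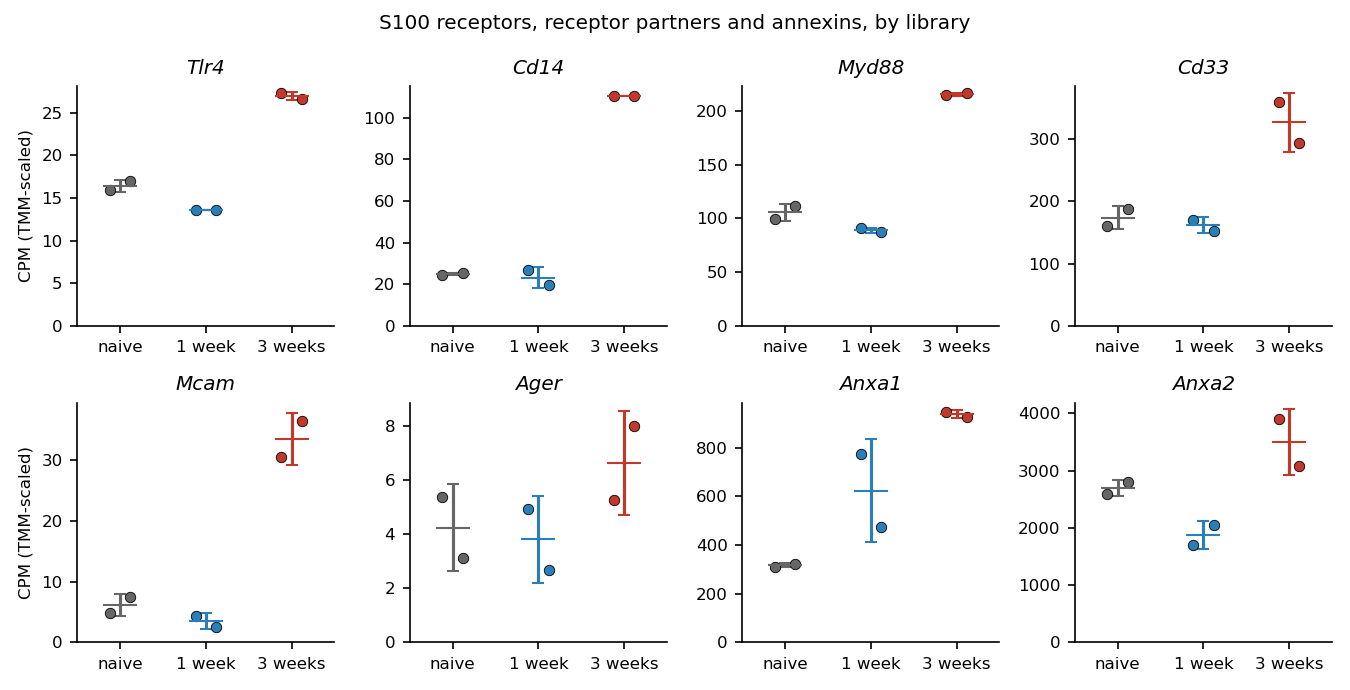
Level in CPM (TMM-scaled) of the receptors Tlr4, Cd33, Mcam and Ager, of Cd14 and Myd88, and of Anxa1 and Anxa2, with 1 point per library and the mean ± SD (n = 2), each axis from 0. Tlr4, Cd14, Myd88, Cd33 and Mcam have both three-week points above the other 4, whereas Anxa1 is above naive at both times and Anxa2 is lowest at 1 week.

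Annexins and other partners inside the cell gave 1 gene higher and 2 lower at 1 week against naive, 3 higher and 1 lower at 3 weeks against naive and 5 higher and 3 lower between the LL2 groups, of 21 tested. By library size alone the last 2 splits were 2 higher and 4 lower, and 3 higher and 4 lower. Over all genes 4.23% were higher and 3.76% lower at 1 week, 12% and 9.42% at 3 weeks against naive and 12.9% and 9.57% between the LL2 groups, and nothing is read from the list as a whole. Anxa1, the partner of S100a11, stood at 310.9 and 323.5 CPM in naive, 772.2 and 473.8 CPM at 1 week and 948.2 and 925.0 CPM at 3 weeks. It was 1.96-fold higher than naive at 1 week (edgeR adjusted p = 0.00568) and 2.95-fold at 3 weeks (edgeR adjusted p = 5.31e-05). Anxa2, the partner of S100a10, was present at 2597 and 2794 CPM in naive, 1703 and 2056 CPM at 1 week and 3900 and 3088 CPM at 3 weeks. Anxa2 was lower than naive at 1 week (log2 -0.52, edgeR adjusted p = 0.0341) and higher at 3 weeks than at 1 week (log2 0.89, edgeR adjusted p = 0.000451), where S100a10 was lower. Anxa11, a partner of S100a6, had 27 and 24 counts in naive, 8 and 2 at 1 week and 18 and 17 at 3 weeks and was lower at 1 week than in naive (log2 -2.52, edgeR adjusted p = 0.0226). Iqgap1, a scaffold of the cytoskeleton, was 1.28-fold higher than naive at 3 weeks (edgeR adjusted p = 0.03). Anxa7 was 1.75-fold higher (edgeR adjusted p = 0.00363). Myh9 lay between 609.0 and 691.5 CPM and Cacybp between 8.51 and 13.4 CPM in all libraries, and neither was called.

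Among 18 transcription factors known to act on S100a8 and S100a9 in myeloid cells, 0 were higher and 3 lower at 1 week against naive, 6 higher and 5 lower at 3 weeks against naive, and 6 higher and 4 lower between the LL2 groups. At 1 week 2 were higher by edgeR at an unadjusted p under 0.05, DESeq2 called 0 higher, and at 3 weeks against naive library size alone left 2 higher and 5 lower. Over all genes the shares were 4.23% higher and 3.76% lower at 1 week and 12% and 9.42% at 3 weeks against naive, and 12.9% and 9.57% between the LL2 groups. Cebpb, a C/EBP factor of emergency granulopoiesis, was 2.89-fold higher than naive at 3 weeks (edgeR adjusted p = 3.56e-05). Cebpe, which drives the later steps of granulocyte maturation, stood at 87.4 and 93.2 CPM in naive, 103.0 and 110.5 CPM at 1 week and 44.3 and 46.6 CPM at 3 weeks, and was 1.99-fold lower than naive at 3 weeks (edgeR adjusted p = 8.49e-05). Stat3, which relays G-CSF and interleukin signals, was lower than naive at 1 week (log2 -0.48, edgeR adjusted p = 0.0176) and higher at 3 weeks (log2 0.41, edgeR adjusted p = 0.0155). Jun, a part of AP-1, was 2.14-fold higher than naive at 3 weeks (edgeR adjusted p = 0.000449).

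The other EF-hand proteins are calcium-binding proteins outside the family. Of 15 tested, 1 was higher and 0 lower by edgeR at 1 week against naive, 8 were higher and 1 lower at 3 weeks against naive and 9 were higher and 2 lower between LL2 groups, with medians of 0.06, 0.38 and 0.47. By library size alone 5 were higher and 1 lower at 3 weeks against naive, and 5 higher and 3 lower between the LL2 groups. Of all genes 12% were higher and 9.42% lower at 3 weeks against naive, and 12.9% and 9.57% between the LL2 groups, with 4.23% and 3.76% at 1 week. Plscr1, a phospholipid scramblase, was 3.87-fold higher than naive at 3 weeks (edgeR adjusted p = 1.92e-06). Sri (sorcin), Efhd2 and Chp1 were 1.93-fold, 1.79-fold and 1.65-fold higher, with edgeR adjusted p of 0.000134, 0.000694 and 0.000636.

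Other antimicrobial and metal-binding proteins of the neutrophil gave 2 genes higher and 0 lower by edgeR at 1 week against naive, 2 higher and 5 lower at 3 weeks against naive and 1 higher and 6 lower between the LL2 groups, of 11 tested. At 1 week none was lower by edgeR at an unadjusted p under 0.05 and 1 by DESeq2. All genes gave 4.23% higher and 3.76% lower at 1 week, 12% and 9.42% at 3 weeks against naive and 12.9% and 9.57% between the LL2 groups. Lyz2, a lysozyme, stood at 7861 and 10015 CPM in naive, 13694 and 13996 CPM at 1 week and 3202 and 4187 CPM at 3 weeks, lower than naive at 3 weeks by 2.42-fold (edgeR adjusted p = 6.62e-05). Camp, the cathelicidin, was 2.05-fold lower (edgeR adjusted p = 0.000173), and the chitinase-like Chil3 1.73-fold lower (edgeR adjusted p = 0.000453). Pglyrp1, which binds peptidoglycan, was 3.05-fold higher than naive at 1 week (edgeR adjusted p = 5.53e-05) and 2.05-fold higher at 3 weeks (edgeR adjusted p = 0.000265).

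As a description over 6 libraries of 3 groups, the genes whose log2 CPM followed a member most closely were sought among 3325 tested genes with a mean log2 CPM over 5. For S100a8 they were Bad, Slc35d2 and Skap2 (Pearson's r of 0.9977, 0.9956 and 0.9932), and for S100a9 Fcer1g, Cyp4f18 and Ndufb7 (0.9875, 0.9807 and 0.9677). For S100a6 they were Oaz2, Coro1c and Grk6 (0.9995, 0.9985 and 0.9966), and for S100a4, among 3326 genes, Gpr108, Aprt and Snrpc (0.8849, 0.8801 and 0.8798). The 6 points share 3 groups and their libraries, and no p is given.

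**Figure D5:**
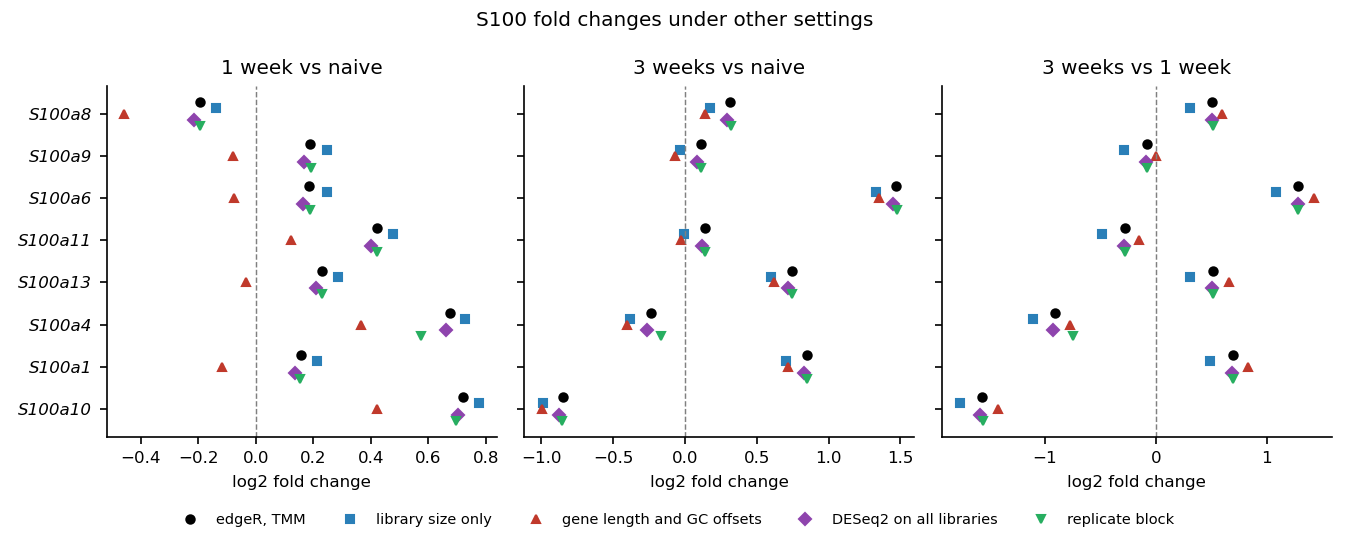
Log2 fold change of each member in the 3 comparisons under edgeR with TMM and under 4 alternatives: scaling by library size alone, offsets for gene length and GC content, DESeq2 on all libraries, and a block for the replicate number. At 1 week against naive the offsets put S100a9, S100a6, S100a1 and S100a13 below 0, and S100a6 at 3 weeks is far above 0 under each setting shown.

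Offsets for gene length and GC content, fitted because S100 transcripts are short, moved the members' median log2 fold change at 1 week against naive from 0.21 to -0.05, and S100a8 was then called lower (log2 -0.46, edgeR adjusted p = 0.0169). At 3 weeks against naive they moved it from 0.23 to 0.06, with S100a6, S100a1 and S100a13 called in both. Between the LL2 groups the median moved from 0.22 to 0.30.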

How the data were processed

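BM Ly6G+ cells were profiled by total RNA sequencing in 6 single-end libraries, 2 per group, and groups and their size were taken from the labels, while the study's text names more samples in a group. Read lengths in the labels and in the methods differ, and whether counting used strand is not given in the sources used here. The authors aligned reads with RSEM (version 1.2.31 in the submitters' processing notes, another in the methods) and Bowtie2 against mm10 and Ensembl genes. The deposited expected counts are whole numbers for each gene and carry no normalization. The authors tested with DESeq2.

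Symbols and positions came from GENCODE M21 on GRCm38 and promoters from RefSeq on GRCm38.p6. Genes were filtered with filterByExpr, scaled by TMM and compared by quasi-likelihood in edgeR 4.0.16 (R 4.3.3), fitting all 6 libraries at once by group alone. A call was an adjusted p-value under 0.05 (Benjamini-Hochberg over 12259 genes). CPM used library totals of 11994158 to 14127919 counts multiplied by their TMM factors (0.9134 to 1.072), and log2 CPM a prior count of 2. The tests were tried on simulated counts. Alternatives were DESeq2 1.42.0, other scalings and filters, a replicate block, length and GC offsets and each library left out.

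The members, the gene lists and the rule for names were chosen with earlier results of these data known. All members are named; from each list up to 4 called genes with the smallest adjusted p are named, with the known partners Tlr4, Ager, Anxa1, Anxa2, Anxa11, Myh9, Cacybp and Il1a, the 3 genes most like S100a8, S100a9, S100a6 and S100a4, and tested neighbours on the chromosome. The marker lists for monocytes (166.7 to 239.9 CPM in all), macrophages (666.6 to 1177), T and NK cells (11.5 to 28.4), erythroid cells (576.9 to 1521), platelets (131.7 to 201.1) and dendritic cells (67.4 to 87.96) are given as summed ranges over all libraries. The first and second three-week libraries held 1177 and 727.4 CPM of macrophage, 1353 and 576.9 of erythroid and 239.9 and 186.6 of monocyte genes. For T and NK cells they held 11.5 and 13.1 CPM, for platelets 131.7 and 148.4, and for dendritic cells 67.4 and 74.6. The part of these differences in the S100 results was not tested. Protein sequences were not used here.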

Additional observations from a re-analysis of the deposited data

Results flagged for a closer look

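The change from naive at 3 weeks differed from that at 1 week for 5 members, tested directly as three-week against one-week libraries by edgeR. On the log2 scale the difference was 1.29 for S100a6, 0.69 for S100a1, 0.51 for S100a13, 0.51 for S100a8 and -1.57 for S100a10. These are the 5 of 8 member calls given above for that comparison, in which 22.5% of all genes were called. Libraries were apart for each of the 5, which were picked by their calls in the same comparison. Of all 8 members 7 were apart, against 63.9% of all genes.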

How the results depend on the processing

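Of the 24 fold changes of members, 8 kept their direction and their side of the threshold in every alternative that used all libraries, and 5 also without each library in turn. With 2 libraries a group the spread rests on few values, S100a10, S100a1 and S100a4 rest on 20 to 526 counts a library, and a lone library is assumed to vary like the others. The causes of the changes below were not tested.

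The number of members called at 1 week against naive (1) was 0 with DESeq2 size factors, with the replicate block and at an adjusted p under 0.01, 2 with no filter, and 0 to 1 without each library. Between the LL2 groups (5) it was 3 at an adjusted p under 0.01 and 2 to 5 without each library (2 without the second one-week or the first three-week library). At 3 weeks against naive (3) it was 2 to 4 without each library.

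Scaling by library size alone shifted the median log2 fold change of all genes to -0.11 at 3 weeks against naive and to -0.22 between LL2 groups, and turned S100a9 (-0.04) and S100a11 (-0.01) at 3 weeks against naive. Between LL2 groups it gave S100a9 -0.28 and S100a11 -0.48, both called, and S100a1 0.49 and S100a13 0.31, neither called. Offsets for gene length and GC content turned S100a9 (-0.08), S100a6 (-0.07), S100a1 (-0.12) and S100a13 (-0.03) at 1 week, called S100a8 lower (-0.46) and lost S100a11 (0.12). They turned S100a9 (-0.07) and S100a11 (-0.03) at 3 weeks against naive and S100a9 between LL2 groups (0.01). S100a11 at 1 week was also lost with DESeq2 size factors (0.40, adjusted p = 0.051). With no filter S100a4 was called at 1 week (0.67) and between LL2 groups (-0.94), as was S100a8 at 3 weeks against naive (0.29). S100a8 between LL2 groups was lost where 10 counts were required in every library (0.48), and S100a1 with DESeq2 on the 2 groups compared (0.69).

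The replicate numbers come from the labels, which tie no number to a shared animal, litter or day. Deviations of same-numbered libraries correlated at 0.0101, 0.0364 and 0.0379. These values are taken over genes, which are no independent replicates, and cannot exclude a shared day or litter. With the replicate block S100a11 at 1 week was 0.42 (adjusted p = 0.0544), and no other member call changed.

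Without each library in turn, log2 fold changes at 1 week against naive ranged from -0.44 to 1.30 for S100a4 and from 0.37 to 0.47 for S100a11. At 3 weeks against naive they ranged from 0.20 to 0.42 for S100a8, -0.03 to 0.23 for S100a9, -0.48 to 0.02 for S100a4 and 0.78 to 0.90 for S100a1. Between LL2 groups they ranged from 0.41 to 0.57 for S100a8, -1.57 to 0.17 for S100a4, -1.93 to -1.18 for S100a10, 0.55 to 0.79 for S100a1 and 0.43 to 0.62 for S100a13.

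The combined share of counts became 27.1%, 26.8% and 29.7% of protein-coding counts in naive, one-week and three-week libraries, and 53.5%, 51.6% and 56.2% after division by gene length. Against TMM-scaled totals it was 23.8% at 1 week and 30.4% at 3 weeks. The naive mean on that scale stayed within its SD (1.30) of the unscaled 25.5%.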
